A study of Mus musculus with 10 samples.

Results

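The core loop of the circadian clock was followed gene by gene in the livers of 10 mice with or without a mutation of HtrA2/Omi, a serine protease of mitochondria encoded by Htra2. The loop was taken as a fixed list of 10 genes, Arntl, Npas2, Clock, Cry1, Cry2, Per1, Per2, Per3, Nr1d1 and Nr1d2, found by symbol among the 19271 genes of the deposited table after summing the transcripts of each gene. All 10 were present. All mice were 2 months old and of the strain C57BL6/N, and the groups were 1 female of genotype S400D/S400D, 3 males S400D/S400D (homozygous), 3 males S400D/WT (heterozygous) and 3 males WT/WT (wild type). In S400D a serine of the protease is replaced by aspartate. The labels do not say how the allele was made, at what time of day or in which feeding state the livers were taken, or which animals were littermates.

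In mammals BMAL1, the product of Arntl, pairs with CLOCK or with its relative NPAS2, and the pair binds E-box sequences and switches on the Per, Cry and Nr1d genes. PER and CRY proteins then return to the nucleus and block the pair that induced them, while REV-ERB alpha and beta, the products of Nr1d1 and Nr1d2, repress Arntl, Npas2 and also Cry1. In mouse liver most of these mRNAs cycle strongly over the day, with Arntl and Npas2 high when Nr1d1 and the Per genes are low, and Cry1 later than the other repressors.

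Each library held between 16240441 and 17264289 expected counts (estimated reads per gene, not normalised) and between 14474 and 14887 genes with at least 1 read. All 6 hepatocyte markers exceeded 1 CPM (read counts relative to library size after TMM scaling) in all 10 libraries, with summed levels of 113386 CPM in the female, 112794 to 134583 CPM in homozygous, 74352 to 100629 CPM in heterozygous and 94188 to 107309 CPM in wild-type males. Heterozygous male 2 stood apart from its group in several clock genes, and the fold changes whose direction or call rests on it are given with and without it. Sums of reads per gene do not show the substituted base, so they do not check the genotype labels.

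RefSeq promoter windows of GRCm38.p6 were matched for 9 of the 10 genes, all but Per2 (13 windows, some overlapping), and the 250 bases before each start were searched on both strands for the E-box CACGTG, the related E-prime-box CACGTT, the D-box as TTATGTAA or TTATGCAA, which PAR-bZIP factors such as DBP bind, and the core site AGGTCA that ROR and REV-ERB proteins bind. An E-box was found in 2 of the 13 windows and in 6.02% of all 32851 windows, an E-prime-box in 3 and in 3.85%, a D-box in 2 and in 1.5%, and the core site in 3 and in 14%. The windows of Arntl and Npas2 held none of these motifs. None of the motifs overlapped another in the windows of these genes. Both D-box windows belonged to Period genes and both E-box windows to Per1 and Cry1. The promoters below are shown because Per3 and Nr1d1 had the widest ranges among the repressors, Per1 can be set beside Per3, and Cry1 was highest in the liver with the highest Arntl. Capitals mark the motifs, the strand is that of the gene, bases of annotated exons at the window's edge are left out, and a match of letters is not evidence of binding.

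Per3, chr4:151044708-151044915, minus strand, with D-boxes beginning 205 and 158 bases before the start:
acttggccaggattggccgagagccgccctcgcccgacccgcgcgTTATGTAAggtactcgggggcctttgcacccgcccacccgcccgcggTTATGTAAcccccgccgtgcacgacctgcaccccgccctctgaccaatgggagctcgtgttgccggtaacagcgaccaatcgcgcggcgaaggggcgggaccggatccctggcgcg
Per1, chr11:69098699-69098947, plus strand, with an E-box at 166, a core site at 137 and a D-box at 24 bases before the start:
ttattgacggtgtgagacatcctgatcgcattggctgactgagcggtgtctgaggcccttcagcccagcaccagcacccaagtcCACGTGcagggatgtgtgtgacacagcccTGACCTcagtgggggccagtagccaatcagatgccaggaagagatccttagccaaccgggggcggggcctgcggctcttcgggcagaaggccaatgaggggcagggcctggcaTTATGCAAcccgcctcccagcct
Cry1, chr10:85185065-85185304, minus strand, with an E-prime-box at 79 and an E-box at 60 bases before the start:
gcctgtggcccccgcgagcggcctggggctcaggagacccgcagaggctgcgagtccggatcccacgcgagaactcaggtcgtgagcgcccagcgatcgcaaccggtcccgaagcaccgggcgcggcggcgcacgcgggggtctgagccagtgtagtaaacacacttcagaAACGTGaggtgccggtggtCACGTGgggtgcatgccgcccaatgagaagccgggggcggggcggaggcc
Nr1d1, chr11:98775378-98775627, minus strand, with an E-prime-box at 28 bases before the start:
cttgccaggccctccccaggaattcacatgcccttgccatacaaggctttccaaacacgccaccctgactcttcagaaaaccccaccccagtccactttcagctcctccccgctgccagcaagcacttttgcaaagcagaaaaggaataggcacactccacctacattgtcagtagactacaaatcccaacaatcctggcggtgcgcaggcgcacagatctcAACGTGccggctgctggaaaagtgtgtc

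The positive limb varied most in Arntl and Npas2. Arntl (gene 11865, chromosome 7, 113178471 to 113314126) stood at 1.59 CPM in the female, at 17.4, 26.1 and 38.1 CPM in homozygous males, at 1.17, 31.5 and 2.59 CPM in heterozygous males and at 2.64, 2.45 and 4.25 CPM in wild-type males. The 3 homozygous males and heterozygous male 2 were high and the other 6 livers low, with no value between 4.25 and 17.4 CPM. Homozygous and wild-type males did not overlap, while heterozygous males covered the range from the lowest liver to the second highest. Npas2 (gene 18143, chromosome 1, 39193702 to 39363240), which can replace Clock as the partner of BMAL1, stood at 0.170 CPM in the female, at 2.11, 5.86 and 13.3 CPM in homozygous males, at 0, 8.68 and 0.338 CPM in heterozygous males and at 0.469, 0.257 and 0.554 CPM in wild-type males. The 4 livers with high Arntl were also the 4 with high Npas2, and homozygous male 3 was highest in both. Heterozygous male 1, lowest in both, had 0 Npas2 reads, a count that allows a level of up to 0.184 CPM (the limit of 3 reads, which covers counting error alone), and the female had 3 reads. In whole liver, fewer cells of a type and less RNA per cell cannot be told apart.

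Clock (gene 12753, chromosome 5, 76209868 to 76305603), the constant partner of BMAL1 in textbook descriptions, moved over a narrower range. Its level was 16.6 CPM in the female, 42, 35.0 and 46.9 CPM in homozygous males, 13.7, 37.0 and 23.7 CPM in heterozygous males and 25.5, 24.7 and 27.4 CPM in wild-type males. The same 4 livers were above the other 6, and homozygous male 3 was again highest and heterozygous male 1 lowest, 3.42-fold apart. For Arntl the highest and lowest liver differed 32.6-fold.

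Per2 and Per3, repressors whose proteins form the PER complex with CRY, were low where Arntl was high. Per2 (gene 18627, chromosome 1, 91415977 to 91459351) was at 30.6 CPM in the female, at 7.77, 5.21 and 9.46 CPM in homozygous males, at 69.1, 9.86 and 30.2 CPM in heterozygous males and at 33.9, 52.1 and 43.8 CPM in wild-type males. Per3 (gene 18628, chromosome 4, 150997018 to 151044707) was at 65.4 CPM in the female, at 3.31, 3.92 and 1.63 CPM in homozygous males, at 69.9, 3.54 and 22.5 CPM in heterozygous males and at 31.8, 38.7 and 41.9 CPM in wild-type males. In both genes the 3 homozygous males and heterozygous male 2 were the lowest 4 livers and heterozygous male 1 the highest. Per3 had the widest range of the genes with reads in each liver, 42.9-fold, against 13.3-fold for Per2.

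Per1 (gene 18626, chromosome 11, 69095108 to 69109965), the Period gene that also answers quickly to hormones and feeding, did not follow that order. It was at 57.6 CPM in the female, at 49.9, 8.49 and 32.7 CPM in homozygous males, at 20.3, 5.49 and 38.7 CPM in heterozygous males and at 41.7, 35.7 and 66.4 CPM in wild-type males. Homozygous male 2 and heterozygous male 2 were low, and homozygous male 1 lay inside the wild-type range, although all 3 were low in Per2 and Per3. Heterozygous male 1, highest in Per2 and Per3, had less Per1 than the wild-type males.

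Both cryptochromes, which carry most of the repressive activity of the PER and CRY complex, differed in opposite directions between homozygous and wild-type males, though neither passed the test over all genes. Cry1 (gene 12952, chromosome 10, 85131700 to 85185054) was at 5.22 CPM in the female, at 14.7, 10.3 and 45.1 CPM in homozygous males, at 5.78, 15.2 and 4.90 CPM in heterozygous males and at 9.03, 8.04 and 10.2 CPM in wild-type males. Homozygous male 3 was far above the other 9 livers, and homozygous male 2 just above the highest wild-type male. Cry2 (gene 12953, chromosome 2, 92403646 to 92434085) was at 57.5 CPM in the female, at 32.0, 41.5 and 26.1 CPM in homozygous males, at 48.7, 32.7 and 35.2 CPM in heterozygous males and at 41.0, 41.5 and 63.8 CPM in wild-type males. Its range of 2.44-fold was the smallest of the 10 genes, and homozygous male 3 was the lowest liver.

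Of the REV-ERB genes, Nr1d1 was set apart by a single liver. Nr1d1 (gene 217166, chromosome 11, 98767932 to 98775377) was at 195 CPM in the female, at 73.6, 102 and 11.5 CPM in homozygous males, at 153, 103 and 120 CPM in heterozygous males and at 111, 86.8 and 123 CPM in wild-type males. Homozygous male 3 was far below the next liver, homozygous male 1, and homozygous male 2 and heterozygous male 2, both high in Arntl, lay inside the wild-type range. Nr1d2 (gene 353187, chromosome 14, 18204056 to 18239106) was at 87.6 CPM in the female, at 63.6, 44.6 and 21.2 CPM in homozygous males, at 94.9, 43.5 and 70.4 CPM in heterozygous males and at 77.8, 86.9 and 96.1 CPM in wild-type males. The homozygous males and heterozygous male 2 were the lowest 4 livers in Nr1d2. The livers with high Arntl thus differed among themselves: homozygous male 3 combined the highest Arntl, Npas2, Clock and Cry1 with the lowest Nr1d1, Nr1d2, Per3 and Cry2, homozygous male 1 had Per1 at a wild-type level, and homozygous male 2 and heterozygous male 2 had the lowest Per1 with Nr1d1 at a wild-type level.

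**Figure D1:**
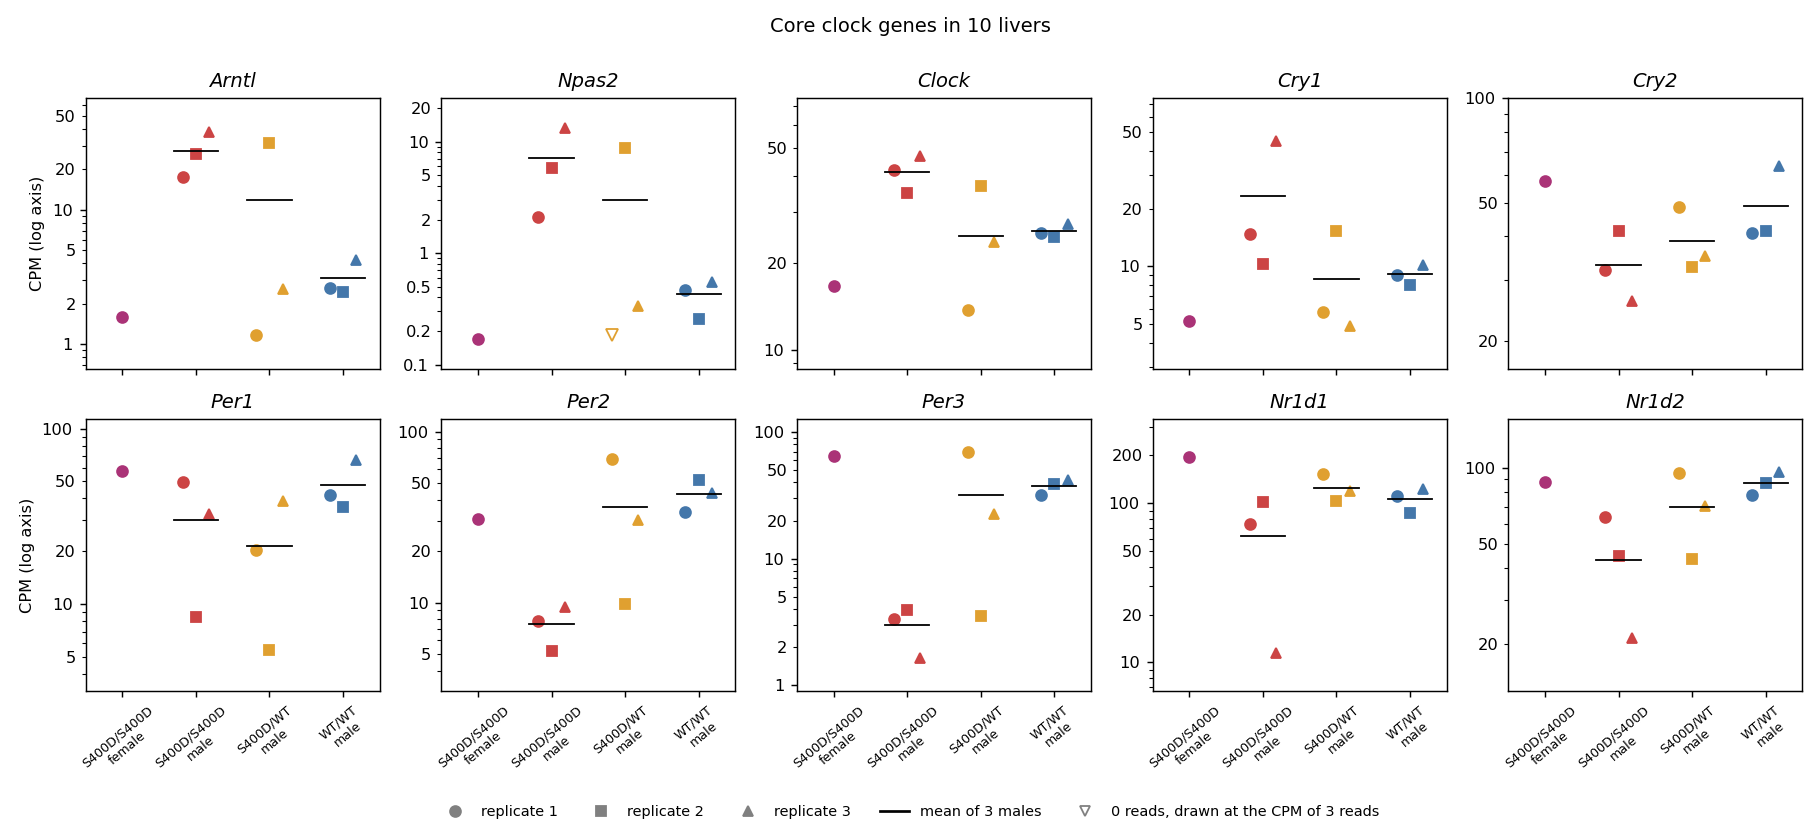
Level of each core clock gene (CPM, log axis) in each liver, by genotype and sex, with 1 point a liver, the shape giving the replicate number and the line the mean of 3 males. Arntl of the homozygous males lies between 17.4 and 38.1 CPM and that of the wild-type males between 2.45 and 4.25 CPM, while heterozygous male 2 (square) lies with the homozygous males in Arntl, Npas2, Per2 and Per3.

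**Figure D2:**
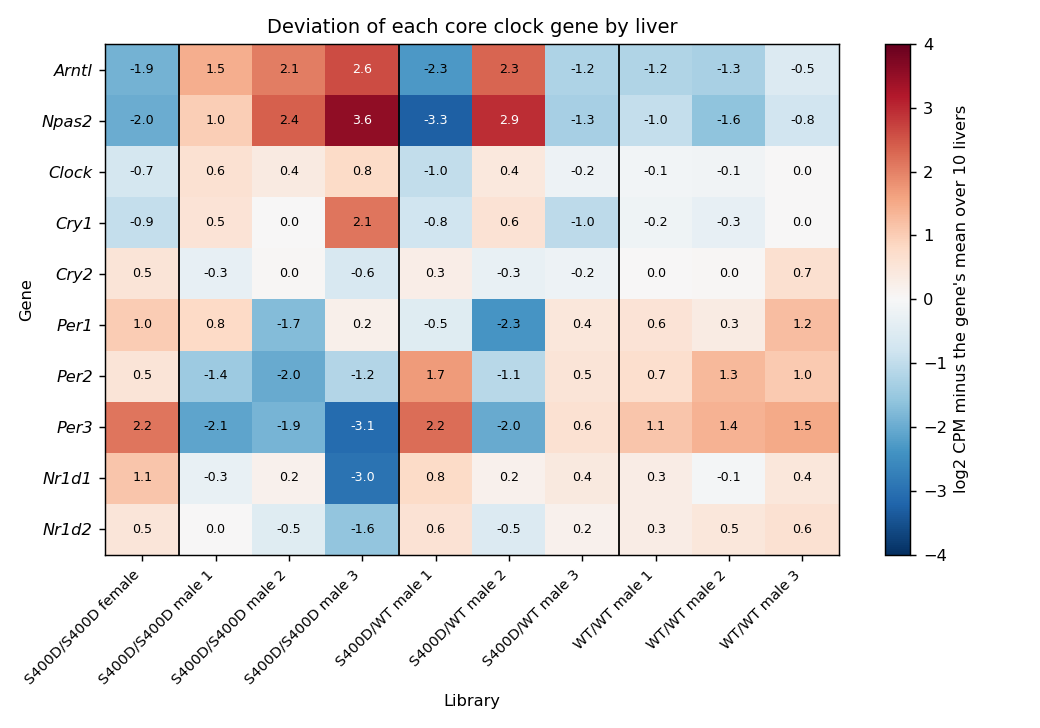
Deviation of log2 CPM of each gene from its own mean over the 10 livers, with genes in rows, livers in columns and vertical lines between the groups. Red marks a level above the gene's mean and blue a level below it, and in homozygous male 3 Arntl, Npas2 and Cry1 are among the reddest and Nr1d1 and Per3 among the bluest cells.

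Spread among the livers, taken without regard to genotype, was wide for these genes. The SD of log2 CPM (prior count 2) over the 10 livers was 2.32 for Npas2, 2.03 for Per3, 1.89 for Arntl, 1.30 for Per2, 1.18 for Per1, 1.11 for Nr1d1, 0.94 for Cry1, 0.69 for Nr1d2, 0.56 for Clock and 0.39 for Cry2. The median SD was 1.15 for the 10 genes and 0.25 for all 12954 genes that passed the filter, and 3 of the 10 (Npas2, Per3 and Arntl) were in the top 1% of those genes and 7 in the top 5%. Npas2 passed that filter through the livers where it was high, so its rank is a description. The spread was unequal between the groups. Within wild-type males the SD of a member was 0.08 to 0.47 with a median of 0.29, within homozygous males 0.21 to 1.69 with a median of 0.73, and within heterozygous males, male 2 included, 0.29 to 3.18 with a median of 1.14. Over all genes the median SD was 0.21 for homozygotes, 0.19 for heterozygotes and 0.18 for the wild type. The difference in spread between the groups was not tested.

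**Figure D3:**
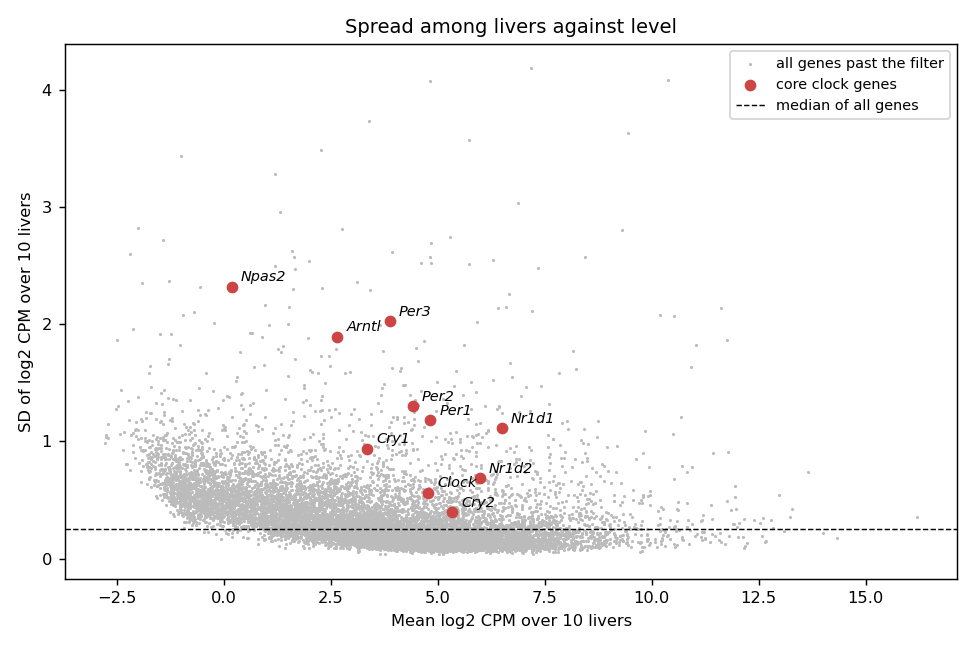
SD of log2 CPM over the 10 livers against the mean log2 CPM, with all genes past the filter in grey, the 10 core clock genes in red and the median SD of all genes (0.25) as a dashed line. Npas2, Per3 and Arntl have SDs of 2.32, 2.03 and 1.89, and Cry2, at 0.39, is nearest to the line.

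Homozygous males were set against wild-type males first, to see how the loop differs when no wild-type copy of the protease is left. No label gives the time of collection, so in this and the other comparisons genotype and time of day cannot be told apart. None of the 10 genes passed the test over all genes, and edgeR's quasi-likelihood test called 0 of 12427 genes (0%). At an unadjusted p under 0.05, which 14.9% of all genes met, 4 members were higher (Arntl, Npas2, Clock and Cry1; 6.82% of all genes) and 4 lower (Cry2, Per2, Per3 and Nr1d2; 8.08% of all genes). The groups did not overlap in 7 members, higher in Arntl, Npas2, Clock and Cry1 and lower in Per2, Per3 and Nr1d2. Npas2 passed the filter through the livers where it was high, so its place in both counts is a description. Of all genes 20.8% did not overlap, 9.27% higher and 11.5% lower. The median absolute log2 fold change was 1.18 for the members and 0.19 for all genes.

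By size of the fitted fold change Npas2 and Per3 came first. Npas2 passed the filter on low counts through the livers where it was high, had 4 to 9 reads in wild-type males, and was dropped by the filter when heterozygous and wild-type males were fitted alone, so its fold change is a description. It averaged 7.10 ± 5.70 CPM in homozygous and 0.427 ± 0.153 CPM in wild-type males (SD, n = 3 each), a log2 fold change of 4.02 (SE 1.45, edgeR adjusted p = 0.271). Per3 averaged 2.95 ± 1.19 CPM in homozygous and 37.5 ± 5.17 CPM in wild-type males (log2 fold change -3.65, SE 0.87, edgeR adjusted p = 0.178). Arntl averaged 27.2 ± 10.4 CPM in homozygous and 3.11 ± 0.989 CPM in wild-type males (3.13, SE 1.01, edgeR adjusted p = 0.25). Per2 averaged 7.48 ± 2.14 CPM in homozygous and 43.3 ± 9.13 CPM in wild-type males (-2.53, SE 0.58, edgeR adjusted p = 0.167). In these 4 genes the groups did not overlap, while the adjusted p was above 0.05. DESeq2 called Per2 (-2.53, SE 0.53, adjusted p = 0.000513) and Per3 (-3.66, SE 0.91, adjusted p = 0.00670), 2 of 10 members against 2.52% of the 12182 genes to which it gave an adjusted p, and both fell in that test, as 1.58% of genes did.

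The other members differed by less. In homozygous over wild-type males the log2 fold change was 1.36 (SE 0.57) for Cry1, 0.68 (SE 0.29) for Clock, -0.55 (SE 0.23) for Cry2 and -1.01 (SE 0.37) for Nr1d2, with edgeR adjusted p between 0.278 and 0.319. It was -0.66 (SE 0.69) for Per1 and -0.78 (SE 0.58) for Nr1d1, and the groups overlapped in both and in Cry2. Homozygous male 3 carried much of Cry1 and of the REV-ERB genes. Without it the log2 fold change was 0.46 (SE 0.44) for Cry1, -0.28 (SE 0.23) for Nr1d1 and -0.68 (SE 0.30) for Nr1d2, against 2.80 for Arntl, 3.20 for Npas2, -2.73 for Per2 and -3.37 for Per3. Without heterozygous male 2, which enters only the shared estimate of the spread here, the SE was 0.38 for Arntl and 0.47 for Per3. Each then had an edgeR adjusted p of 0.0957, the lowest among the omissions of each male. Over these omissions it ran up to 0.557 for Arntl and up to 0.508 for Per3.

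Heterozygous males were next set against wild-type males, to see what a single S400D allele goes with. Again 0 members passed in edgeR, which called 0 of 12427 genes (0%), and 0 members had an unadjusted p under 0.05, against 4.19% of all genes. DESeq2 called 7 genes (0.0563%) and 0 members. The groups overlapped in all 10 members, where 10.4% of all genes did not overlap. The direction of 4 fold changes hung on heterozygous male 2. Arntl averaged 11.7 ± 17.1 CPM in heterozygous and 3.11 ± 0.989 CPM in wild-type males (SD, n = 3 each), with a log2 fold change of 1.92 (SE 1.01, edgeR adjusted p = 0.972) that was -0.71 (SE 0.47) without that animal. For Npas2 the log2 fold change was 2.79 (SE 1.48) with and -1.26 (SE 1.29) without it, for Per2 -0.25 (SE 0.54) with and 0.20 (SE 0.35) without it, and for Per3 -0.23 (SE 0.74) with and 0.30 (SE 0.44) without it. The direction of these 4 genes thus turned with 1 liver. Without heterozygous male 1 they kept their direction, at 2.45 (SE 0.83) for Arntl and 3.37 (SE 1.23) for Npas2. Per2 was then at -1.11 (SE 0.44) and Per3 at -1.52 (SE 0.62). Leaving out male 1 also turned Clock, from -0.06 to 0.23 (SE 0.19), and Cry1, from -0.07 to 0.15 (SE 0.65). Cry1 turned as well without heterozygous male 3 (0.22, SE 0.62) and without wild-type male 3 (0.03, SE 0.69).

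The comparison of homozygous with heterozygous males asks what the loss of the remaining wild-type copy adds. In edgeR 0 members passed and 0 of 12427 genes were called (0%). An unadjusted p under 0.05 was met by Clock and Cry1 (higher) and by Per2 and Per3 (lower), 4 of 10 against 17.2% of all genes (8.25% higher and 8.92% lower). Without overlap were Per2 and Nr1d1, 2 of 10 and both lower, against 22.4% of all genes (11.7% lower). Both separations were narrow at heterozygous male 2. Its Per2 was at 9.86 CPM against 9.46 CPM in homozygous male 3, and its Nr1d1 at 102.9 CPM against 101.7 CPM in homozygous male 2. Per2 averaged 7.48 ± 2.14 CPM in homozygous and 36.4 ± 30.1 CPM in heterozygous males (SD, n = 3 each; log2 fold change -2.28, SE 0.58, edgeR adjusted p = 0.129). Per3 averaged 2.95 ± 1.19 CPM in homozygous and 32.0 ± 34.2 CPM in heterozygous males (-3.42, SE 0.86, edgeR adjusted p = 0.125), and the groups overlapped through heterozygous male 2. Without that male the log2 fold change was -2.73 (SE 0.37) for Per2 and -3.96 (SE 0.49) for Per3, each with an edgeR adjusted p of 0.118. DESeq2 called both (Per2 -2.29, adjusted p = 0.00175; Per3 -3.44, adjusted p = 0.00847), against 4.56% of the 11941 genes to which it gave an adjusted p (2.33% lower). For Arntl the log2 fold change was 1.21 (SE 0.91), and 3.84 (SE 0.47, edgeR adjusted p = 0.118) without heterozygous male 2. This comparison shares its homozygous males with the comparison against wild type.

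The homozygous female had Arntl, Npas2, Per2 and Per3 apart from the 3 males of her genotype and on the side of the livers with low Arntl. Each of the 10 members lay outside the range of the 3 homozygous males, as 54.4% of 12954 genes did (27.3% higher and 27.1% lower). She was lower than the homozygous males in Arntl, Npas2, Clock and Cry1 and higher in Cry2, Per1, Per2, Per3, Nr1d1 and Nr1d2. Her Per3 was at 65.4 CPM, against 2.95 ± 1.19 CPM in homozygous males (SD, n = 3; log2 fold change 4.46, SE 1.01, edgeR adjusted p = 0.316). Her Arntl was at 1.59 CPM, against 27.2 ± 10.4 CPM (-4.09, SE 1.75, edgeR adjusted p = 0.462). With 1 female, her spread was taken from the males, and her sex and her other differences from these males cannot be told apart. Of the members 0 passed in edgeR, which called 10 genes (0.0772%), and 0 in DESeq2, where 0.853% of the 12196 genes with an adjusted p passed. An unadjusted p under 0.05 was met by 6 of 10 members against 10.3% of all genes (5.21% higher and 5.13% lower). Without heterozygous male 2, which is in neither group and sets part of the spread, Per3 passed in edgeR (4.46, SE 0.54). It passed in no other omission of a male, and its log2 fold change ran from 4.17 to 4.72 over these omissions.

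**Figure D4:**
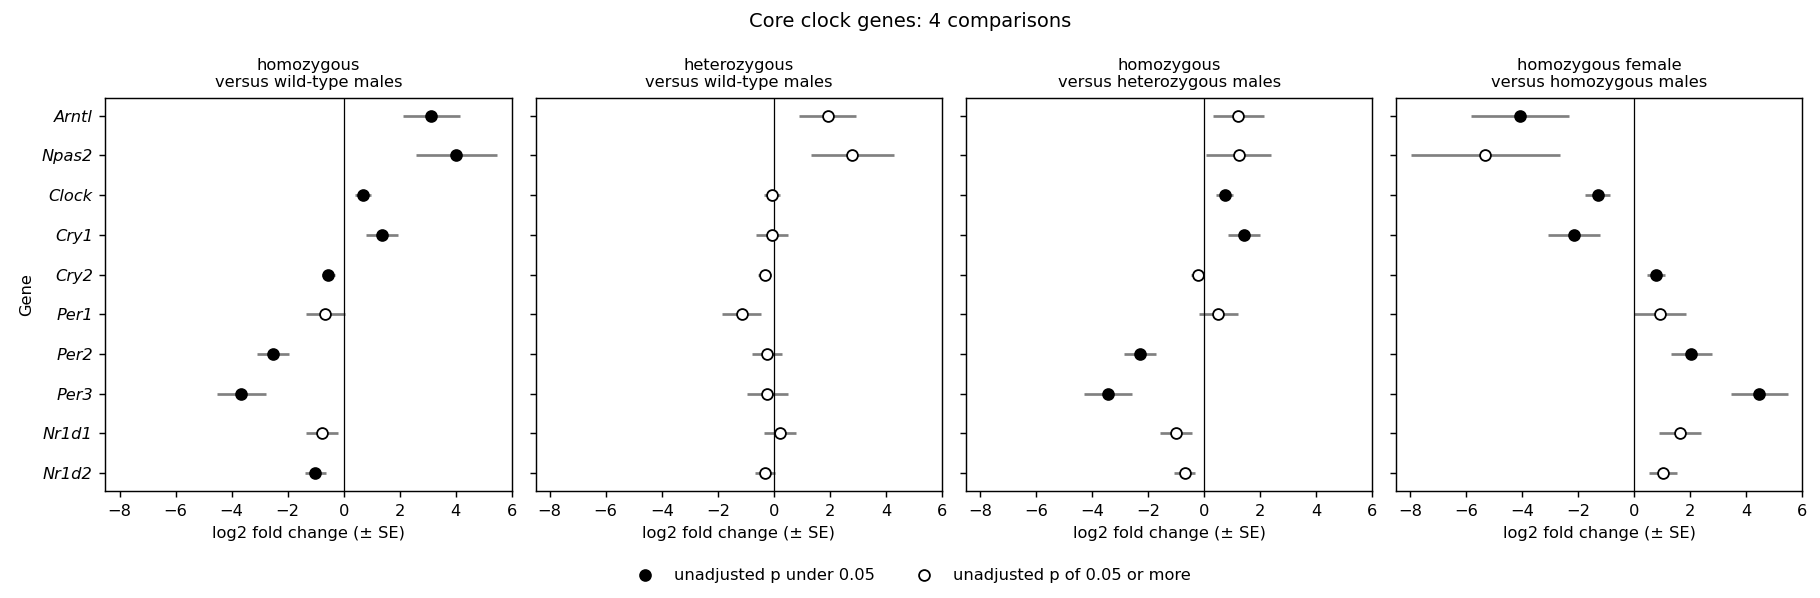
Log2 fold change (point) and its standard error (bar) of the 10 core clock genes in 4 comparisons, each panel giving the group named first over the group named after it. Filled points have an unadjusted p under 0.05, which 8 members have in homozygous against wild-type males and 0 in heterozygous against wild-type males, and no point passes the adjusted threshold of 0.05 in edgeR.

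Ratios within a liver, which do not depend on library scaling, showed how the paralogues were balanced. These are ratios of FPKM (fragments scaled to transcript length and library, summed over a gene's transcripts), the scale on which levels of different genes can be compared. Npas2 over Clock was 0.0270 in the female, 0.127, 0.426 and 0.713 in homozygous males, 0, 0.589 and 0.0345 in heterozygous males and 0.0471, 0.0253 and 0.0496 in wild-type males. Clock exceeded Npas2 in each liver, but by the least in homozygous males 2 and 3 and heterozygous male 2. Cry1 over Cry2 was 0.123 in the female, 0.620, 0.328 and 2.32 in homozygous males, 0.160, 0.626 and 0.188 in heterozygous males and 0.296, 0.262 and 0.217 in wild-type males. Homozygous male 3 was the liver in which Cry1 exceeded Cry2. Nr1d1 over Nr1d2 was 3.90 in the female, 2.03, 3.99 and 0.951 in homozygous males, 2.83, 4.14 and 2.97 in heterozygous males and 2.50, 1.75 and 2.25 in wild-type males. That ratio was below 1 in homozygous male 3 and between 1.75 and 4.14 in the other 9 livers.

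The shares of the 3 Period genes also differed between livers. Per3 made up 38.3% of their summed FPKM in the female, 4.39%, 19.3% and 3.10% in homozygous males, 41.1%, 16.4% and 21.5% in heterozygous males and 26.3%, 27.6% and 24.3% in wild-type males. Per1 made up 42.6% in the female, 84.4%, 52.7% and 77.5% in homozygous males, 15.2%, 32.3% and 47.3% in heterozygous males and 43.9%, 32.4% and 48.7% in wild-type males. Homozygous males had a larger Per1 share and a smaller Per3 share than wild-type males, without overlap in either. Their summed FPKM was 13.4, 3.68 and 9.04 in homozygous and 21.6, 22.1 and 29.5 in wild-type males.

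**Figure D5:**
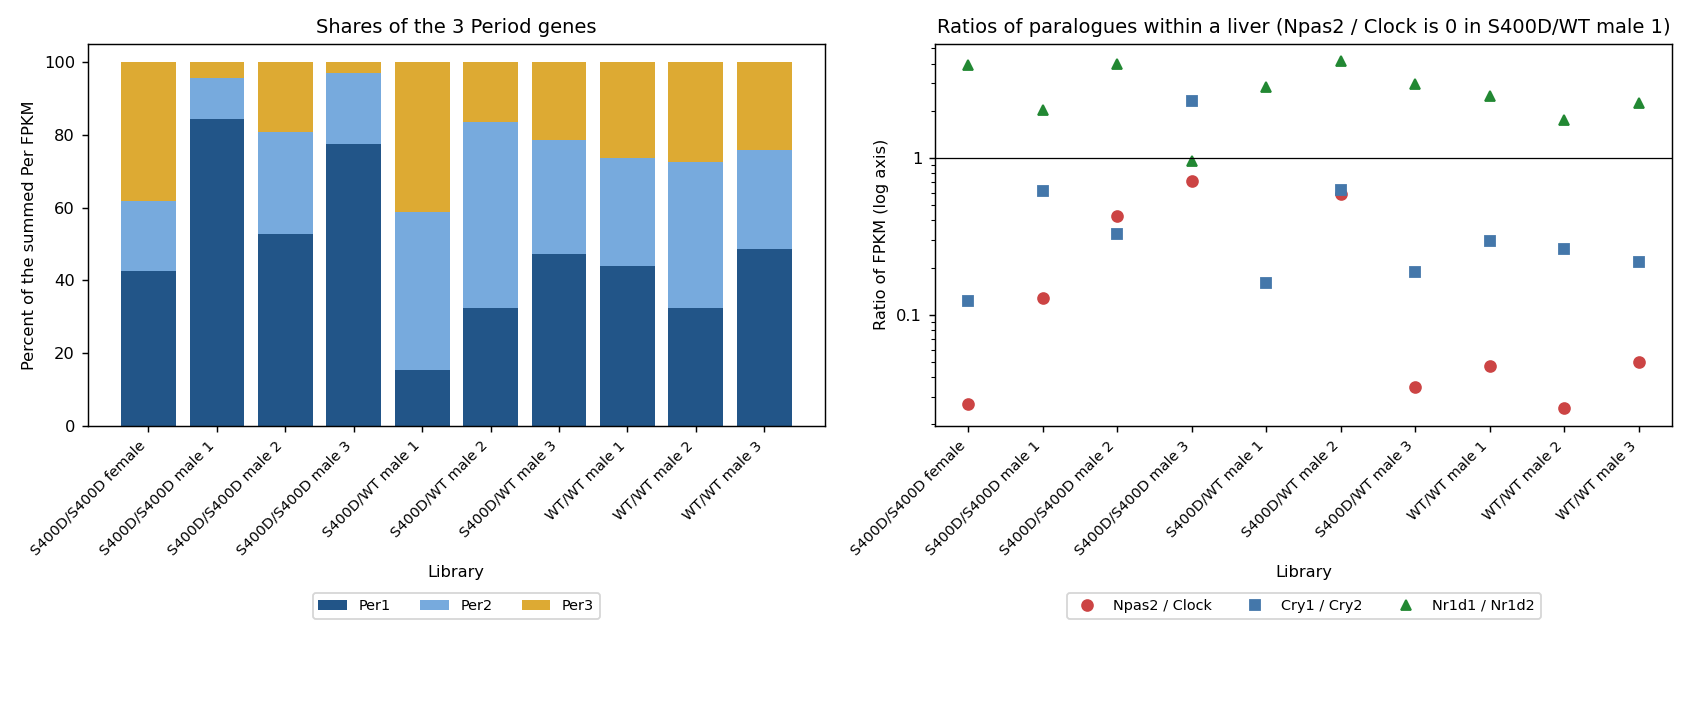
Left, shares of Per1, Per2 and Per3 in their summed FPKM (percent) by liver; right, ratios of FPKM within a liver (log axis) for Npas2 over Clock, Cry1 over Cry2 and Nr1d1 over Nr1d2, with a line at 1. Per1 takes 84.4% and 77.5% in homozygous males 1 and 3, and Cry1 over Cry2 is above 1 in homozygous male 3 at 2.32.

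By level per length, Nr1d1 led and Npas2 was last. The median FPKM over the 10 livers was 44.2 for Nr1d1, 17.4 for Nr1d2, 10.7 for Cry2, 8.07 for Per1, 5.96 for Per2, 4.88 for Per3, 3.48 for Cry1, 2.79 for Clock, 1.31 for Arntl and 0.135 for Npas2. Arntl was above Npas2 in 10 of 10 livers, and Nr1d1 above Nr1d2, Per2 above Per3 and Cry1 above Clock in 9 of 10. Other neighbours overlapped over the livers: Nr1d2 was above Cry2 and Cry2 above Per1 in 8 livers, Per1 above Per2 in 7, and Per3 above Cry1 and Clock above Arntl in 6. Arntl ran above Clock in the 3 homozygous males and heterozygous male 2. FPKM of genes with many transcripts also depend on how the authors' program split reads. The transcript with the most reads held 45.3% of the reads of Arntl (16 transcripts listed), 44.2% of those of Clock (11 listed) and 100% for Nr1d1 and Nr1d2 (1 listed each). In single livers its share ran from 0% to 80.6% for Arntl and from 0% to 84.4% for Clock. For the Period genes it ran from 41.5% to 74.6% (Per1), from 38.9% to 86.6% (Per2) and from 0% to 100% (Per3).

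Genes beyond the loop with the most similar patterns were sought among 11254 genes by the root mean square (RMS) difference between deviations of log2 CPM from each gene's own mean over the 10 livers. Per3, whose own deviations have an RMS of 1.92, was matched most closely by Bhlhe41, a repressor of E-box transcription (RMS difference 0.47), then by the output factor Dbp (0.79), the cell cycle kinase gene Wee1 (0.93), the deubiquitinase gene Usp2 (0.98) and the output factor Tef (1.06). Closest to Arntl, with an RMS of 1.80, were the choline kinase gene Chka (0.81), Nfil3, which represses through D-boxes (0.85), Asap2 (0.95), Loxl4 (0.96) and Clpx (0.99), the gene of a mitochondrial chaperone. With the sign turned round, Bhlhe41 was again closest to Arntl (0.60), before Wee1 (0.90), Usp2 (0.92), the haem synthesis gene Alas1 (0.93) and Tef (0.97). Both matches of Bhlhe41 rest on low counts, at 0.177 to 0.644 CPM in the 4 livers with high Arntl, where the prior count narrows its deviations. Mirrored to Per3 were the cell cycle inhibitor gene Cdkn1a (0.85), Nfil3 (0.93), Chka (1.00), Slc45a3 (1.02) and Clpx (1.10). For the other members the nearest gene was Loxl4 for Npas2 (1.21), Pnkd for Clock (0.15), Btg1 for Cry1 (0.41), Zyx for Cry2 (0.16), Cebpb for Per1 (0.61), Pfkfb3 for Per2 (0.45), Cabcoco1 for Nr1d1 (0.39) and Tbc1d10a for Nr1d2 (0.24). Each is to be read against the member's own RMS, at 2.2 for Npas2, 0.53 for Clock, 0.89 for Cry1 and 0.37 for Cry2. That RMS was 1.12 for Per1, 1.23 for Per2, 1.06 for Nr1d1 and 0.65 for Nr1d2. All genes of a liver share its library, and with 10 livers of which 4 stand high in Arntl, many genes can follow either pattern.

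Of 24 further clock genes (among them outputs, ROR receptors, kinases and cofactors) 23 were tested, and Rorb had 0 reads in each library. In homozygous against wild-type males 0 passed in edgeR, and at an unadjusted p under 0.05 there were 1 higher and 6 lower (6.82% and 8.08% of all genes), with a median log2 fold change of 0.01 (0.00 for all genes). The smallest p values belonged to Bhlhe40, Nfil3 and Bhlhe41. Bhlhe40, the relative of Bhlhe41, was at 15.1, 34.7 and 47.1 CPM in homozygous and 112, 135 and 136 CPM in wild-type males (-1.98, SE 0.46, edgeR adjusted p = 0.167). Nfil3 was at 42.3, 42.1 and 77.7 CPM in homozygous and 16.0, 9.14 and 13.6 CPM in wild-type males (2.06, SE 0.49, edgeR adjusted p = 0.180). Bhlhe41 was at 0.343, 0.644 and 0.241 CPM in homozygous and 4.75, 7.85 and 6.89 CPM in wild-type males (-3.96, SE 0.97, edgeR adjusted p = 0.187). Bhlhe41 passed the filter through the livers where it was high, so its fold change is a description. The same holds for Ciart, at 3.43, 0.469 and 0.362 CPM in homozygous and 7.51, 12.4 and 22.5 CPM in wild-type males. The groups did not overlap in 9 of the 23 genes (2 higher and 7 lower), against 20.8% of all genes. Bhlhe40, Nfil3 and Bhlhe41 were among them. The places of Bhlhe41 and Ciart among the lower genes of both counts are a description. The casein kinase genes Csnk1d and Csnk1e, which mark PER proteins for decay, had log2 fold changes of 0.09 (SE 0.09) and 0.24 (SE 0.20), with overlapping groups.

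Markers of other liver cells were measured beside the clock genes. In homozygous against wild-type males 0 of them passed in edgeR, which called 0 of 12427 genes (0%). Higher at unadjusted p under 0.05 (6.82% of all genes) were 2 of 8 Kupffer, 2 of 6 endothelial and 4 of 6 stellate markers. Of the 5 cholangiocyte markers 1 was higher and 1 lower, and 1 of 3 erythroid markers was lower (8.08% of all genes). The 8 Kupffer cell markers had positive log2 fold changes in homozygous against wild-type males (8 of 8, median 0.80), with summed levels of 374 CPM in the female, 354 to 366 CPM in homozygous, 147 to 381 CPM in heterozygous and 115 to 400 CPM in wild-type males. The 6 sinusoidal endothelial markers were also positive (6 of 6, median 0.59), at 131 CPM in the female, 173 to 178 CPM in homozygous, 105 to 165 CPM in heterozygous and 73.4 to 184 CPM in wild-type males, as were 5 of 6 stellate markers (median 0.90; 283 CPM in the female, 241 to 378, 191 to 297 and 97.9 to 236 CPM in the 3 male groups in the same order). The summed Kupffer and endothelial levels of homozygous males lay inside the wild-type range, through wild-type male 1 (400 and 184 CPM). They were above those of wild-type males 2 and 3 (148 and 115 CPM Kupffer, 73.4 and 81.9 CPM endothelial). The summed stellate levels of homozygous males lay above the wild-type range. None of these markers was at 0 throughout. Erythroid markers had negative log2 fold changes in homozygous against wild-type males (3 of 3, median -1.31), with summed levels of 174 CPM in the female, 161 to 188 CPM in homozygous, 164 to 1024 CPM in heterozygous and 139 to 1129 CPM in wild-type males, the highest being heterozygous male 3 and wild-type male 1. Cholangiocyte markers were negative in 4 of 5 (median -0.48) and summed to 24.4 to 45.6 CPM over the 10 livers, lymphocyte markers to 1.20 to 4.17 CPM and markers of pancreas and fat to 0.120 to 2.11 CPM. Within the wild-type males, male 1 had 400 CPM of Kupffer markers and males 2 and 3 had 148 and 115 CPM, while their Arntl was 2.64, 2.45 and 4.25 CPM. The part of these cell types in the clock differences was not tested.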

How the data were processed

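Liver mRNA of 10 mice was sequenced after selection on oligo(dT) beads and random-hexamer priming, per the labels' protocols. The authors deposited, for 77712 transcripts and each sample, expected counts (not whole, not normalised), FPKM values (scaled to transcript length and library) and TPM values (scaled to a fixed sum). HISAT, Bowtie2 and GRCm38.p6 are named by the submitters' processing notes. Tool versions, the quantifier and strand use: not given in the sources used here. Mean columns of the authors (9), which pool the female with homozygous males, were not used.

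Transcripts were summed to 19271 genes (19214 matched to RefSeq by gene ID), and counts were rounded before testing. A whole number lay within 0.05 reads of 94.5% of the nonzero sums. edgeR 4.0.16 (R 4.3.3) was fitted with TMM factors, its filter on low counts by group, its quasi-likelihood test and Benjamini-Hochberg adjustment over all genes tested (threshold 0.05), to the 9 males together or, for the female, to all 10 samples. CPM use TMM factors of the 10 samples. Scripts were tested on simulated data. Alternatives were DESeq2 1.42.0, its size factors within edgeR, 2 filters, the compared groups alone, the replicate number as a block and omission of each male. The members and lists were chosen with earlier results of these data known. Genes named are the members, the 3 further clock genes with the smallest p (none passed), and the nearest genes by RMS difference with a mean of at least 1 CPM. Csnk1d, Csnk1e, Rorb and Ciart were named after their values were seen. Nothing says that replicates are separate litters or days, and the p-values cover the variation among these livers alone, which may be technical.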

Additional observations from a re-analysis of the deposited data

How the results depend on the processing

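Over the 10 members and 4 comparisons, 215 of 219 log2 fold changes under other normalisations, filters, samples in the fit, the block and DESeq2 kept their direction and their side of the threshold, and the other 4 were Per2 and Per3 passing in DESeq2, against wild-type and against heterozygous males. The edgeR adjusted p moved both ways in homozygous against wild-type males. For Per3, Arntl and Per2 it was 0.178, 0.25 and 0.167 in the main fit. With the compared groups alone it was 0.0516, 0.0648 and 0.0648, and with the replicate block 0.301, 0.34 and 0.301. DESeq2 called 307 genes and 2 members in homozygous against wild-type males, 7 genes in heterozygous against wild-type males, 544 genes and 2 members in homozygous against heterozygous males, and 104 genes in the female against homozygous males, where at least 1 CPM in 3 libraries gave 5. The cause was not tested. Deviations from the group mean correlated at r from -0.419 to 0.181 between same-numbered males of different groups. Between differently numbered males r ran from -0.325 to 0.422. With 3 animals a group these values cannot show whether the numbers pair animals. With the replicate block edgeR called 0 genes and 0 members in each of the 3 comparisons of males. The SD of Npas2 over the livers was 2.99 with a prior count of 0.25.

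Leaving out each male in turn gave 0 to 18 called genes for homozygous against wild-type males (18 without wild-type male 1, 2 without homozygous male 2), 0 to 6 for homozygous against heterozygous males (6 without homozygous male 2) and 7 to 12 for the female, with 0 to 1 members called for the female and 0 elsewhere. In heterozygous against wild-type males the sign turned for Arntl (-0.71 to 2.45), Npas2 (-1.26 to 3.37), Clock (-0.47 to 0.23), Cry1 (-0.77 to 0.22), Per2 (-1.11 to 0.20) and Per3 (-1.52 to 0.30), and in homozygous against heterozygous males for Per1 (-0.06 to 1.25). Depth limits Npas2, with 0 to 9 reads in 6 livers, and Bhlhe41, at 0.177 to 0.644 CPM in the 4 livers with high Arntl.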
